A study of Oryza sativa and Oryza rufipogon with 8 samples.

Results

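The COPT genes of rice were 7 genes of the 35679 with at least 1 transcript model in the O. sativa tables, chosen by identifier: COPT1 (OS01G0770700), COPT2 (OS01G0770800), COPT3 (OS03G0370800), COPT4 (OS04G0415600), COPT5 (OS05G0424700), COPT6 (OS08G0455900) and COPT5.1 (OS09G0440700). The rule used gene names and took no expression value directly. The name COPT5.1, however, came from the study's list of genes regulated in both species on these same libraries, so this member was not chosen blind to its response. The partner of COPT5.1 in O. rufipogon, ORUFI09G12590, was taken from the ortholog pairs of the study and was 1 gene of 37071. Each of the 8 genes had 1 transcript model. Published numbering of this family is not uniform, so every name is tied here to its identifier. The RefSeq gene table (assembly ASM3414082v1) also lists 7 rice genes under a COPT name, a neighbouring pair on chromosome 1 and 1 gene on each of chromosomes 3, 4, 5, 8 and 9. Its chromosome 5 gene is called COPT2 and its chromosome 9 gene is called both COPT5.1 and COPT7, and its entries could not be joined to the identifiers of the libraries.

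COPT proteins, the plant members of the Ctr family, are small membrane proteins that carry reduced copper, Cu(I), into the cytosol, and they work as assemblies of several copies. Copper is needed for photosynthetic and respiratory electron transport, for superoxide dismutase and for laccases in the cell wall, and it is toxic in excess. Some members sit at the plasma membrane and take up copper from outside the cell, as rice COPT1 does. Others sit on internal membranes, and Arabidopsis COPT5, after which COPT5.1 is named, moves copper out of the vacuole. Copper and iron nutrition are linked in plants, since several redox functions can be served by a protein of either metal.

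Roots were compared between control plants (CC), which had 100 µM Fe-EDTA, and plants with no added iron (−Fe) for 5 days. The species were O. sativa cv. Nipponbare, the cultivated rice with the reference genome, and O. rufipogon, the wild progenitor. The study states the stage with 3 leaves for its RT-qPCR roots, also taken after 5 days. Copper was supplied as 0.2 µM CuSO4 to all plants, so the copper supply was not a treatment. The 8 libraries, 2 for each species and treatment, were each made from pooled RNA of 3 biological replicates, and p-values measure the spread between these pools.

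The O. sativa libraries held 22911261 to 25312301 estimated counts and the O. rufipogon libraries 14758304 to 18857150. A floor of 3 counts in a single library was therefore 0.122 to 0.130 CPM, counts scaled to the size of the library, in O. sativa and 0.159 to 0.201 CPM in O. rufipogon. The biological coefficient of variation was 11.8% in O. sativa and 16.8% in O. rufipogon. The iron check used 4 genes in O. sativa. IRT1, IRO2 and NAS1 rose by log2 fold changes of 1.98 to 3.44, and VIT2 changed by −1.18 (edgeR). The study listed all 4 as regulated on these same libraries, so they are not an independent check of the treatment. All 3 genes listed as root markers were lower under −Fe, and 2 passed the test. The third, OS02G0662000, changed by −0.91 on the log2 scale (adjusted p = 0.0770, edgeR). It passed with replicate number as a block (adjusted p = 0.000382, edgeR). Of the 2 that passed, the one annotated as a silicon influx transporter (OS02G0745100) changed by −1.45 (adjusted p = 0.00368, edgeR). The other, OS03G0107300, changed by −1.16 (adjusted p = 0.0273, edgeR). Both calls were lost with replicate number as a block (adjusted p = 0.126 and 0.281, edgeR), and that of OS03G0107300 also without −Fe replicate 1 (adjusted p = 0.135, edgeR). The summed level of the list was 3976 to 4230 TPM, estimated counts scaled to transcript length and library, in CC and 1620 to 2014 TPM in −Fe. None of 4 genes listed as leaf markers passed the test (edgeR, 0 also at an unadjusted p below 0.05), with summed levels of 202 to 283 TPM in CC and 105 to 231 TPM in −Fe, and none was at 0 in all libraries.

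The family was carried by 2 of its members in O. sativa roots, and these moved in opposite directions without iron. COPT5.1 rose 3.37-fold and COPT1 fell 2.47-fold. Of the 7 genes, 3 had enough reads for the test, which needed 5 or more counts in 2 or more libraries. Of these, 1 rose, 1 fell and COPT5 did not pass an adjusted p of 0.05. Over all 25767 genes tested by edgeR's quasi-likelihood test, 767 were higher in −Fe (2.98%) and 942 were lower (3.66%), 6.63% in either direction. In whole roots, fewer cells of a type and less RNA per cell cannot be told apart. The plot of all genes by mean count and fold change places the 3 tested members.

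**Figure D1:**
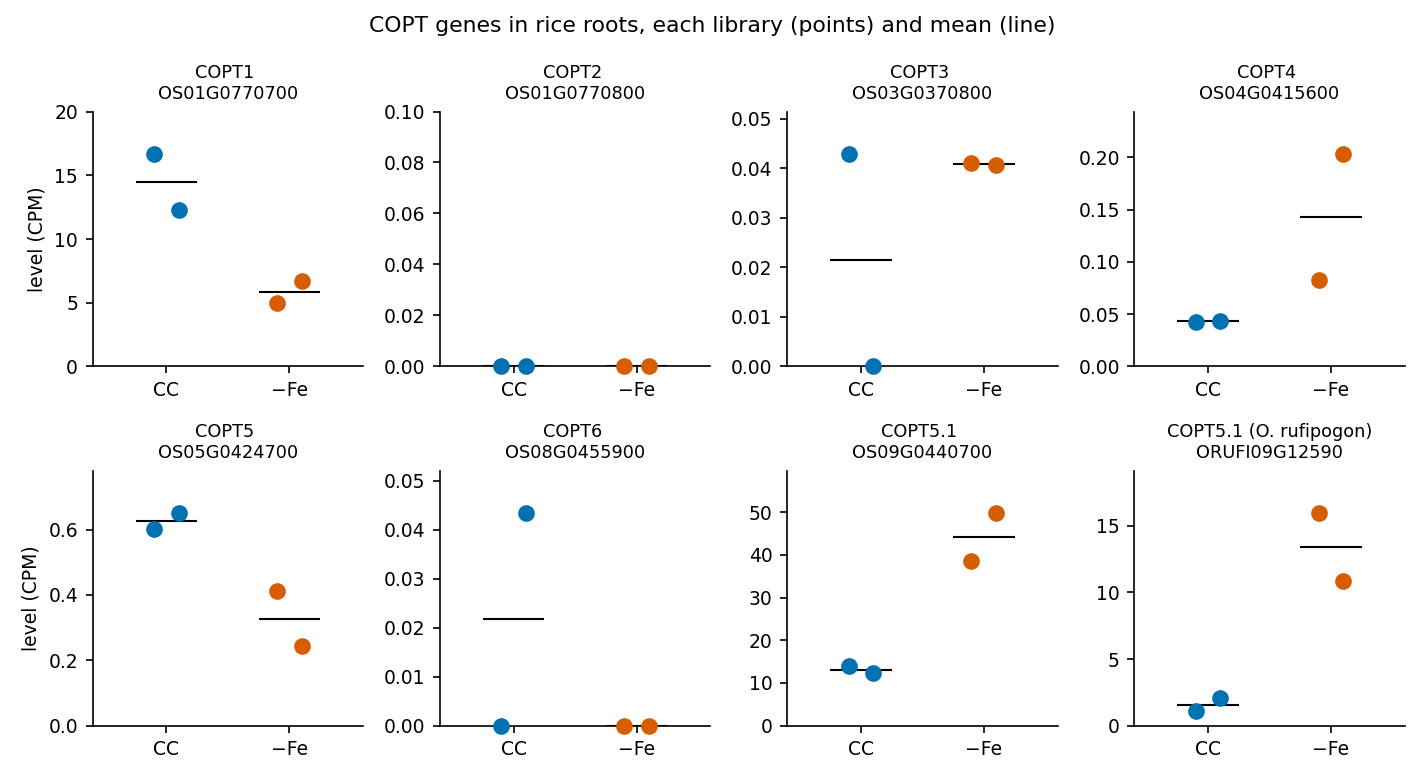
Level of each COPT gene in CPM (vertical axes, each from 0, with a scale of its own) in the control (CC) and iron-free (−Fe) root libraries. Each point is 1 library, replicate 1 on the left, and lines are means of 2. COPT1 sat at 12.3 and 16.7 CPM in CC and below 7 CPM in −Fe, COPT5.1 rose in both species, and COPT2, COPT3, COPT4 and COPT6 had 9 counts or fewer over all libraries.

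COPT5.1, the gene with the highest −Fe level of the family, had 324 and 285 estimated counts in the CC libraries and 939 and 1223 in the −Fe libraries. These were 13.9 and 12.3 CPM in CC, and 38.6 and 49.7 CPM in −Fe. The lowest −Fe library was thus far above the highest CC library. The mean was 13.1 ± 1.09 CPM in CC and 44.2 ± 7.84 CPM in −Fe (SD, n = 2 libraries). The log2 fold change was 1.75 (SE 0.141, 95% interval 1.43 to 2.08, adjusted p = 0.000236, edgeR). Among the 767 genes that were higher in −Fe, COPT5.1 ranked 231 by size of change and 123 by p-value. The study lists COPT5.1 among genes it selected on these libraries, so its call is not independent evidence of the direction. The call was kept in each of 14 alternative fits, with log2 fold changes from 1.57 to 1.95 and adjusted p-values (edgeR, limma or DESeq2) of at most 0.00832.

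COPT1 moved the other way. It had 389 and 283 estimated counts in CC and 121 and 165 in −Fe, or 16.7 and 12.3 CPM against 4.98 and 6.71 CPM. Both −Fe libraries were below both CC libraries. The mean fell from 14.5 ± 3.12 CPM to 5.84 ± 1.22 CPM (SD, n = 2 libraries), a log2 fold change of −1.31 (SE 0.208, 95% interval −1.79 to −0.83, adjusted p = 0.00830, edgeR). COPT1 ranked 203 by size and 330 by p-value among the 942 genes that were lower in −Fe. This call depended on single libraries. Without CC replicate 1 the log2 fold change was −1.07 (adjusted p = 0.0803, edgeR), and without −Fe replicate 1 it was −1.08 (adjusted p = 0.0910, edgeR). The root markers described above were lower in the same −Fe libraries, and their part in the COPT1 result was not tested.

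**Figure D2:**
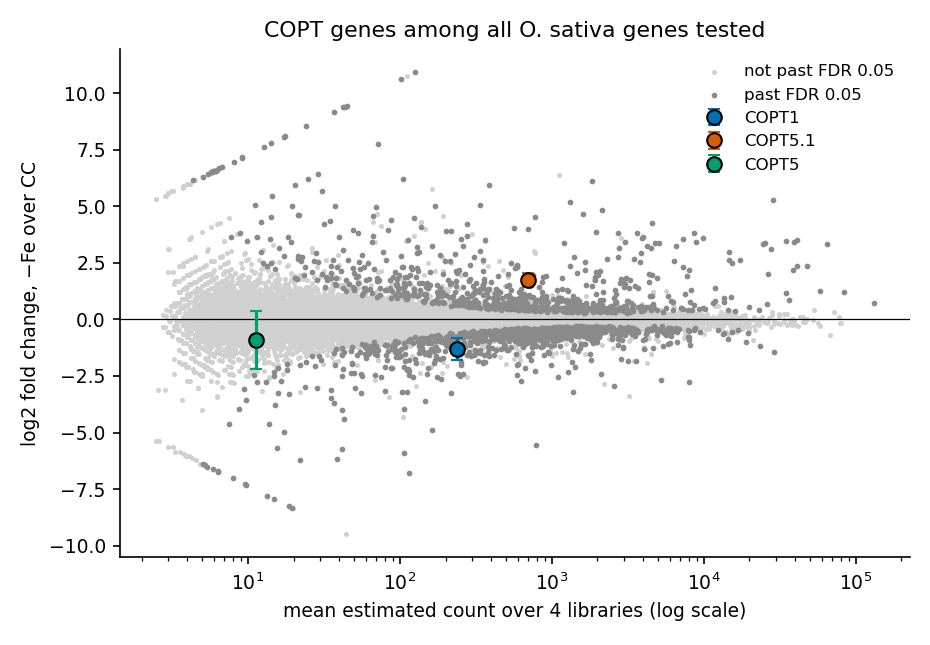
Mean estimated count over the 4 O. sativa libraries (horizontal axis, log scale) against log2 fold change of −Fe over CC (vertical axis) for the 25767 genes tested, dark grey where the adjusted p was below 0.05. Coloured points with 95% intervals are COPT1 (−1.31), COPT5.1 (1.75) and COPT5 (−0.92), whose interval crosses 0.

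COPT5 was a minor member. It had 14 and 15 estimated counts in CC and 10 and 6 in −Fe, or 0.600 and 0.650 CPM against 0.412 and 0.244 CPM. The 2 groups did not overlap, but the counts were few. The log2 fold change was −0.92 with a 95% interval from −2.21 to 0.36 (SE 0.566, adjusted p = 0.422, edgeR), so a decrease of more than 4-fold and a small increase both lay within the interval.

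The remaining 4 members were near or under the floor of 3 counts per library, and no difference was detectable at this depth. COPT4 had 1 count in each CC library and 2 and 5 counts in the −Fe libraries. COPT3 had 1 and 0 counts in CC and 1 in each −Fe library. COPT6 had 1 count, in CC replicate 2, and 0 in the other libraries. COPT2 had 0 counts in all 4 libraries, which over all 4 together (3 counts) allows a level of up to 0.0315 CPM. When every gene with any count was tested, COPT4, COPT3 and COPT6 had adjusted p-values of 0.663, 0.907 and 0.763 (edgeR). Such floors cover counting error only.

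Levels of different genes were compared per length, in TPM. In CC, COPT1 came first with 33.1 and 23.9 TPM, followed by COPT5.1 with 21.5 and 18.8 TPM. The gap between their nearest libraries was 2.46 TPM, smaller than the 9.14 TPM between the COPT1 libraries, so this order did not exceed the spread. In −Fe, COPT5.1 came first, and there the order exceeded the spread. COPT5.1 stood at 59.8 and 73.4 TPM and COPT1 at 9.88 and 12.7 TPM, with a gap of 47.1 TPM between the nearest libraries, against 13.6 TPM between the COPT5.1 libraries. COPT5 came next in both conditions, at 0.861 and 0.918 TPM in CC and at 0.590 and 0.334 TPM in −Fe. In −Fe its lower library was 0.0107 TPM above the higher library of COPT4, less than the spread of either gene.

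The summed level of the 7 genes was 55.6 and 43.8 TPM in CC and 70.5 and 86.8 TPM in −Fe. COPT1 contributed 59.5% and 54.6% of this sum in CC, and 14.0% and 14.6% in −Fe. COPT5.1 contributed 38.6% and 42.9% in CC, and 84.8% and 84.5% in −Fe. The other 5 members together never exceeded 2.49%. The ratio of COPT5.1 to COPT1 within a library, which does not depend on the scaling between libraries, was 0.649 and 0.785 in CC and 6.05 and 5.78 in −Fe. In TPM, the ratio was below 1 in both CC libraries and above 5 in both −Fe libraries. In estimated counts, not scaled to length, it was 0.833 and 1.01 in CC, and 7.76 and 7.41 in −Fe.

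**Figure D3:**
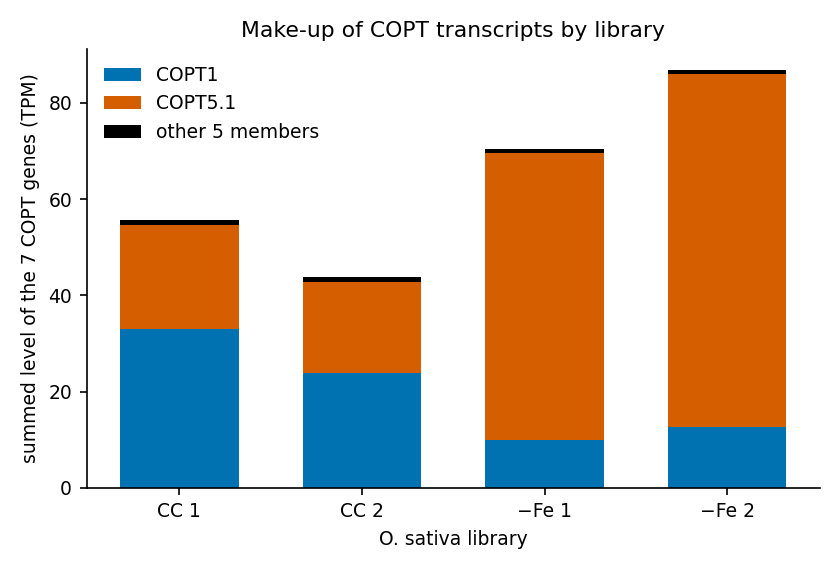
Summed level of the 7 COPT genes (vertical axis, TPM) in the 4 O. sativa libraries (horizontal axis), split into COPT1, COPT5.1 and the other 5 members. COPT1 made up 59.5% and 54.6% of the sum in CC and 14.0% and 14.6% in −Fe, and the rest was nearly all COPT5.1.

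By mean TPM over the O. sativa libraries, COPT5.1 lay at percentile 82.0 and COPT1 at percentile 67.1 of the 25767 genes tested. The estimated counts of all 7 members were whole numbers within 0.001 in every library. The estimates thus split no read between a member and another transcript. A read that fits several transcripts but was given whole to a single transcript would not show here. Tested as transcripts among 30675 transcripts, COPT5.1 had an adjusted p of 0.00465, COPT1 of 0.0417 and COPT5 of 0.468 (edgeR).

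The partner of COPT5.1 in O. rufipogon also rose. ORUFI09G12590 had 16 and 35 estimated counts in CC and 271 and 205 in −Fe, or 1.07 and 2.04 CPM against 15.9 and 10.8 CPM. All of the −Fe values were above all of the CC values. The mean went from 1.56 ± 0.685 CPM to 13.4 ± 3.61 CPM (SD, n = 2 libraries), an 8.47-fold increase. The log2 fold change was 3.08 (SE 0.366, 95% interval 2.19 to 3.98, adjusted p = 0.00527, edgeR). In O. rufipogon 11.9% of the 21081 genes tested were higher in −Fe, a larger background than in O. sativa, and ORUFI09G12590 ranked 436 by size among these 2504 genes. Its call was lost without −Fe replicate 1, at a log2 fold change of 2.80 (adjusted p = 0.0764, edgeR). The transcript model of ORUFI09G12590 had 450 bases and that of OS09G0440700 had 812, and the species were quantified on separate transcriptomes, so levels were not compared between species.

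**Figure D4:**
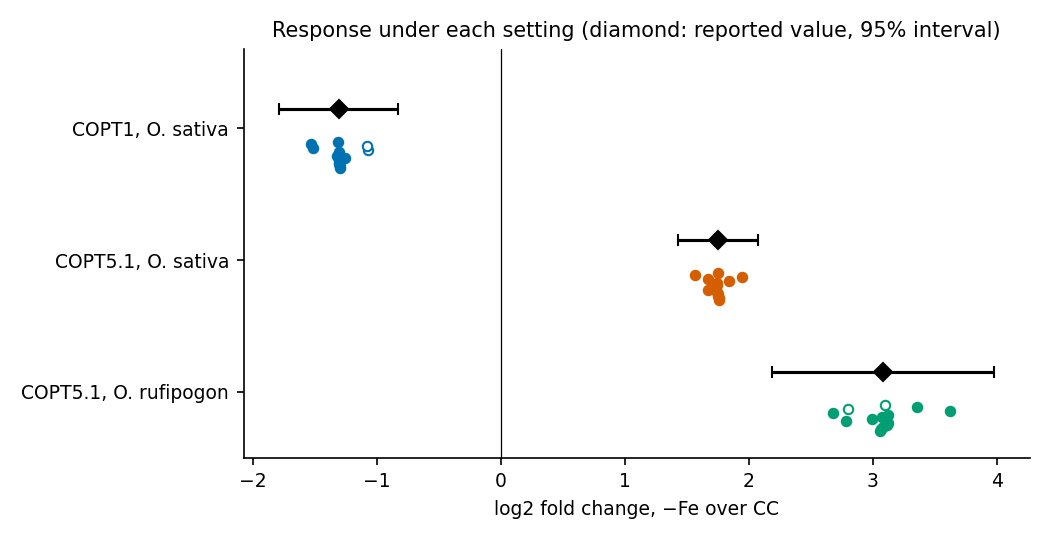
Log2 fold change of −Fe over CC (horizontal axis) for COPT1 and COPT5.1 in O. sativa and for the COPT5.1 partner in O. rufipogon. Black diamonds are the reported values with 95% intervals, circles are the alternative fits, filled where the adjusted p was below 0.05 and open otherwise. COPT5.1 in O. sativa stayed between 1.57 and 1.95 with no open circle, and COPT1 and the partner each had 2 open circles.

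Whether COPT5.1 responded more strongly in the wild species was tested by the interaction of species and treatment over the 102 ortholog pairs that the study listed as regulated in both species. The response in O. rufipogon exceeded that in O. sativa by 1.32 on the log2 scale (SE 0.411, 95% interval 0.43 to 2.22, adjusted p = 0.0286, edgeR). Of the 102 pairs, 36 (35.3%) passed this test, so a difference in either direction was common among them. The interaction was above 0, as for COPT5.1, in 23 of the 36 and below 0 in the rest. The call was lost with replicate number as a block (1.31, adjusted p = 0.0818, edgeR) and without any of 5 of the 8 libraries. The adjusted p (edgeR) was 0.0925 without O. sativa CC replicate 1, 0.0580 without CC replicate 2 and 0.0760 without −Fe replicate 1. It was 0.111 without O. rufipogon CC replicate 1 and 0.0887 without −Fe replicate 1. Among the 57 pairs listed as up-regulated, whose median log2 fold change was 2.48 in O. sativa and 2.65 in O. rufipogon, COPT5.1 ranked 41 by size in O. sativa and 25 in O. rufipogon. These pairs were chosen on the same libraries.

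The O. sativa genes with the pattern most like that of COPT5.1 were sought among 19278 tested genes with a mean of at least 50 counts, by the root mean square difference of their centred log2 CPM over the 4 libraries. The nearest were OS04G0142400 (difference 0.0430, log2 fold change 1.70), OS07G0516700 (0.0567 and 1.79) and OS06G0549600 (0.0704 and 1.66). OS06G0549600 is among the ortholog pairs of the study, and the tables pair none of the 3 with a gene name. With 4 libraries this likeness rests mainly on the size of the −Fe response.

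Copper handling outside the COPT family was described with a list of 13 genes, drawn up from general knowledge of rice to hold a copper-responsive transcription factor, copper chaperones, copper pumps, copper and zinc superoxide dismutases, an ascorbate oxidase and the copper-nicotianamine transporter YSL16. The identifier of YSL16 was matched to an annotation of the study, and the other 12 were not checked against one and are given by identifier. The list was drawn up with earlier results of these data known. All 13 were tested in O. sativa. Of these, 4 rose, against 2.98% of all genes tested, 0 fell, against 3.66%, and 9 did not pass. At an unadjusted p below 0.05 there were 6 (edgeR), with OS05G0408200 the lower one at −0.22 (adjusted p = 0.131, edgeR, and 0.303 with DESeq2). The median log2 fold change of the list was 0.15, beside −0.01 over all genes tested. Without CC replicate 2 the number called was 2.

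The largest change among the genes of the list that passed was in OS08G0205400, at 204 and 194 CPM in CC and 377 and 486 CPM in −Fe. Its log2 fold change was 1.12 (SE 0.124, adjusted p = 0.00163, edgeR). YSL16 (OS04G0542800), which carries copper bound to nicotianamine, stood at 102 and 86.5 CPM in CC and 156 and 175 CPM in −Fe, a log2 fold change of 0.82 (SE 0.10, adjusted p = 0.00173, edgeR). Part of its reads were shared with another transcript, so its counts were estimates. OS02G0196600 rose by 0.51 on the log2 scale (adjusted p = 0.00651, edgeR) and OS04G0556000 by 0.39 (adjusted p = 0.0304, edgeR), and the latter call was lost without any 1 of the 4 libraries (adjusted p up to 0.269, edgeR) and on both TPM scales. OS02G0196600 lost its call without CC replicate 2 (adjusted p = 0.0990, edgeR) and without −Fe replicate 1 (adjusted p = 0.0574, edgeR). Each of these 4 changes was smaller than that of COPT5.1.

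**Figure D5:**
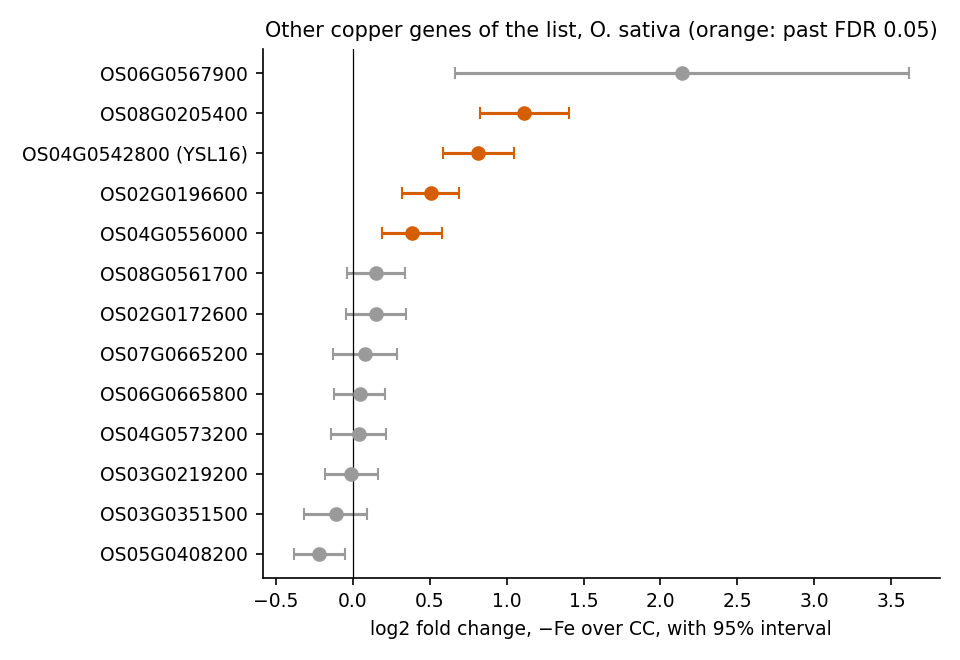
Log2 fold change of −Fe over CC in O. sativa (horizontal axis) with 95% intervals for the 13 other copper genes of the list (vertical axis, by identifier). The 4 orange genes passed an adjusted p of 0.05, from 0.39 to 1.12, and the 9 grey genes did not, among them OS06G0567900 at 2.14 with a wide interval.

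The largest value of the list did not pass the test. OS06G0567900 had 90.3 and 45.2 estimated counts in CC and 207 and 421 in −Fe, with part of its reads shared with other transcripts. The libraries differed about 2-fold within each group, and the groups did not overlap. The log2 fold change was 2.14 (SE 0.526, adjusted p = 0.130, edgeR). The call depended on the fit. The gene passed with DESeq2 (adjusted p = 1.57e-05), with a crossed pairing of replicates chosen after seeing the data (adjusted p = 5.17e-05, edgeR) and without −Fe replicate 1 (log2 fold change 2.58, adjusted p = 0.0362, edgeR), and in the other 10 alternatives the adjusted p was at least 0.0558. The other 8 genes that did not pass had log2 fold changes from −0.22 to 0.15.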

How the data were processed

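Root RNA was sequenced on the Illumina HiSeq platform in 8 libraries. Reads with a PHRED value under 30 were removed, and adapters and the first 12 bases were trimmed. The authors pseudoaligned reads with kallisto (version not given in the sources used here) to the transcriptome of each species. The deposited tables hold, per transcript and library, estimated counts and TPM made by the authors. The submitters' notes name IRGSP-1.0.

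Estimated counts were summed over the transcripts of each gene and rounded. Genes reaching 5 counts in 2 or more libraries were tested, each species by itself, in edgeR 4.0.16 (R 4.3.3) by the quasi-likelihood test with TMM scaling and treatment as the term. P-values were adjusted by Benjamini-Hochberg over all genes tested, at 0.05. The SE is the fold change divided by the root of F. CPM used TMM-scaled library sizes. The interaction was fitted over ortholog pairs of both species. Alternatives used limma 3.58.1 and DESeq2 1.42.0, and the procedure was tested on simulated data. With 2 against 2 libraries an exact permutation test cannot go below p = 0.333.

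All 7 members, the O. rufipogon partner, all 13 genes of the copper list, the 3 genes most like COPT5.1 and the iron check genes were named. The members and lists were chosen with earlier results of these data known. No sequences are shown.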

Additional observations from a re-analysis of the deposited data

Results flagged for a closer look

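The response of COPT5.1 to −Fe differed between the species. Its log2 fold change was 1.75 (SE 0.141) in O. sativa and 3.08 (SE 0.366) in O. rufipogon, and the interaction of species and treatment was 1.32 (SE 0.411, adjusted p = 0.0286 over 102 pairs, edgeR). The value was above 0 in every alternative fit, and in 6 of 13 fits it did not pass the threshold.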

How the results depend on the processing

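COPT5.1 in O. sativa kept its call in all 14 alternatives. COPT1 kept its direction in 14 and its call in 12, with log2 fold changes from −1.53 to −1.07 over the fits that left out 1 library each, which called 1 or 2 members. The lone sample of such a fit was assumed to vary like the other group. The partner in O. rufipogon ranged from 2.68 to 3.63 in these fits, and as a transcript it was 3.10 (adjusted p = 0.0518, edgeR). The interaction ranged from 0.93 to 1.88. The copper list held 2 to 5 called genes. Counting all genes, 1709 were called in O. sativa, fewer in each fit that left out 1 library, and 834 by most abundant transcript. In O. rufipogon the numbers without CC 1, CC 2, −Fe 1 and −Fe 2 were 9604, 6562, 113 and 357, and 775 by transcript, against 3378. Its split into higher and lower calls was 2504 and 874, but 2339 and 1323 with DESeq2, 2521 and 1546 with limma on TPM + 1, and 2289 and 1391 on TPM + 0.1. There the median of all genes was −0.11, and the partner was 2.99, or 3.10 relative to it.

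Replicate numbers pair no material in the labels. Same-numbered libraries had a correlation of deviations of −0.106 in O. sativa and 0.0483 in O. rufipogon. With replicate number as a block, 1717 and 3489 genes were called, the COPT1 adjusted p was 0.0340 (edgeR), and the interaction was 1.31 (adjusted p = 0.0818), the one call it changed among COPT genes and the copper list. A crossed pairing, chosen after seeing the data, called 2036 genes in O. sativa.

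Small values of 3 copper list genes that never passed changed sign. OS04G0573200 was −0.0088 and −0.0089 with limma on TPM + 1 and + 0.1, and −0.022 to 0.11 without 1 library each. OS07G0665200 was −0.019 to 0.21 in these fits and OS03G0219200 −0.036 to 0.056, and the latter was 0.0025 with median-ratio factors and with DESeq2. Depth limited COPT2, COPT3, COPT4 and COPT6, which did not reach the count minimum.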
